A study of Homo sapiens with 4 samples.

Results

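The 38 genes described here take part in glucose breakdown and in the response to low oxygen. They were chosen by name, from a list of glycolysis genes and of targets of the hypoxia-inducible factors (HIF), and all 38 were found among the 19577 gene rows of the 4 plates. They comprise 4 genes of oxygen sensing, 18 of glucose uptake and glycolysis, 4 of lactate and pyruvate handling and 12 HIF targets.

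The cells were MCF10A_H2B_GFP, an untransformed human mammary epithelial line with a green nuclear marker, grown for several days as a circular patch on fibronectin-coated glass in DMEM/F12 with donor equine serum, EGF, hydrocortisone, cholera toxin, insulin and antibiotics. All patches were given the photoactivatable dyes JF646 and JF549, and light was used to tag first the outer and then the middle population. In 2 replicates the regions were 3 rings of equal width (low resolution), and in the other 2 the outer regions were narrow bands at the edge (high resolution). Live single cells were sorted into plates of 384 wells, 1 per replicate, and sequenced by SORT-seq. In it a random tag on each cDNA, the unique molecular identifier (UMI), lets molecules rather than reads be counted. How many patches went into a replicate is not given in the sources used here. The plate is the replicate (n = 2 per experiment), and all plates are of the same line. Wells were not assigned to regions in the values given here, and a difference between the experiments cannot be told apart from a different mixture of regions. In the names of the deposited data, low resolution replicate 1 carries another run identifier than the other 3 plates, which was read as another sequencing run.

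Filtering left 1146 of 1536 wells as cells, 70.6% to 76.3% of the wells of a plate. The plates held 11709628 to 14992348 transcripts, with a median of 30520 to 41248 transcripts per cell, of which a median of 28.4% to 31.2% was mitochondrial. A gene counts as detected here if 20% or more of the cells of each plate held a UMI of it. Of 8 basal mammary markers 7 were detected, at a summed level of 46.8 to 66.5 counts per 10000. Detected were also 1 of 4 luminal, 0 of 6 fibroblast, 1 of 3 endothelial and 0 of 4 blood cell markers, with summed levels of 0.309 to 0.590, 0.0664 to 0.132, 0.141 to 0.214 and 0.00612 to 0.0268.

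When oxygen is plentiful, prolyl hydroxylases mark the HIF alpha subunits for degradation. When it is scarce the subunits are stable, pair with ARNT and switch on genes that hold a short HIF motif, among them most enzymes of glycolysis, the lactate exporter and proteins that remove mitochondria. Growing epithelial cells also express the glycolytic enzymes in ample oxygen. Oxygen at the cells, cell density and HIF protein were not measured here.

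The 38 genes together took 1.87% to 2.01% of the transcripts of a plate. Their summed level was 187.12, 200.79, 197.15 and 192.95 counts per 10000 in low resolution replicates 1 and 2 and high resolution replicates 1 and 2, a mean of 194.5 ± 5.88 (SD, n = 4 plates). The same order of plates is kept below. A level is the gene's counts per 10000 counts of the cells of a plate, and since transcripts were counted at their 3′ end, levels of different genes were compared without division by length. The plot of levels shows that they ran from 54 for GAPDH to 0.00506 for EGLN3. Of the 38 genes 31 were detected.

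**Figure D1:**
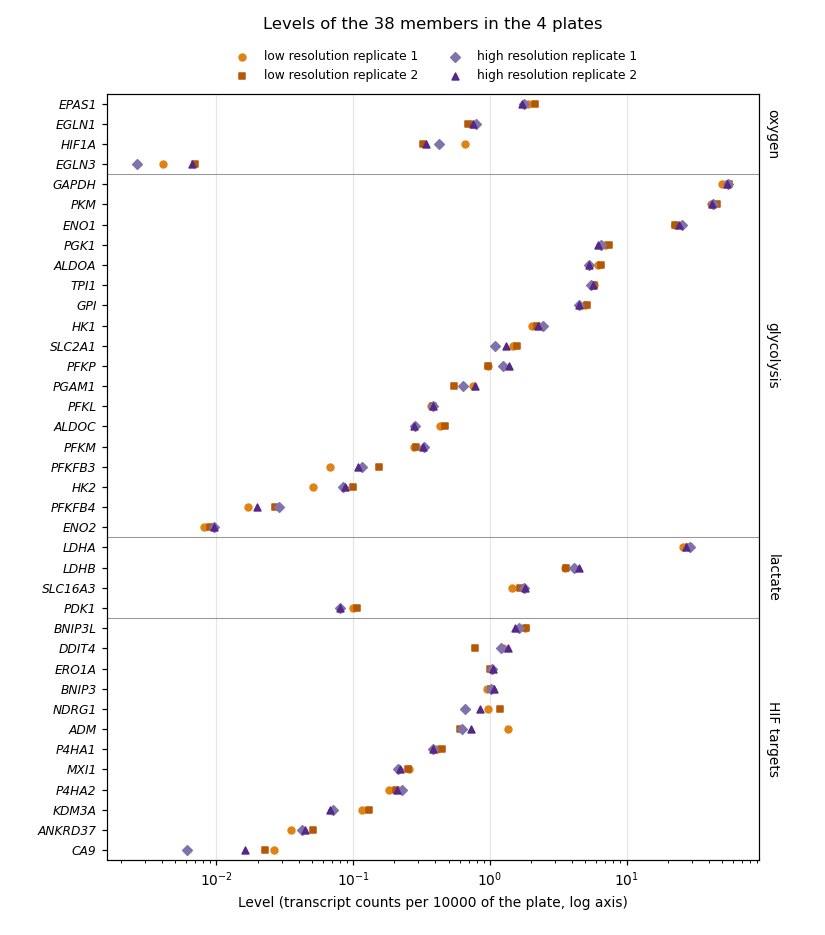
Levels of the 38 genes (x axis, transcript counts per 10000 of the plate, log axis) in the 4 plates (symbols), grouped by role and sorted by mean level. GAPDH is highest with a mean of 54 and EGLN3 lowest with 0.00506, and ADM stands apart in low resolution replicate 1 (1.36).

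A few enzymes carried most of these transcripts. GAPDH, which oxidises glyceraldehyde phosphate, stood at 50.1, 56.4, 55.4 and 54.2 counts per 10000. PKM, pyruvate kinase, stood at 41.3, 45.8, 42.6 and 41.8. LDHA, the lactate dehydrogenase subunit that favours lactate, stood at 25.9, 28.5, 29.2 and 27.3. For each of these the plates of the 2 experiments overlapped. ENO1, the main enolase, stood at 22.5 and 22.4 against 25.6 and 24.3, a difference that did not pass the later test between the experiments. Together these 4 genes made up 74.8% to 77.5% of the counts of the 38. Each has processed pseudogenes, and the treatment of reads matching several places is not given in the sources used here. Their levels are uncertain to that extent. The same holds for PGK1, an ATP-making kinase of the pathway, which stood at 6.94 and 7.47 against 6.49 and 6.19.

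The other enzymes were lower. ALDOA (aldolase), TPI1 (triosephosphate isomerase), GPI (glucose phosphate isomerase) and LDHB (the other lactate dehydrogenase subunit) had mean levels of 5.81, 5.70, 4.77 and 3.93. The hexokinase HK1, which starts the pathway in most cells, had a level of 2.23 ± 0.161 and the inducible HK2 of 0.0806 ± 0.0210 (SD, n = 4 plates). The glucose transporter SLC2A1 and the lactate exporter SLC16A3 had means of 1.36 and 1.68. Among the phosphofructokinase subunits PFKP (1.14) was above PFKL (0.380) and PFKM (0.305). PFKFB3 and PFKFB4, which make the activator of phosphofructokinase, had means of 0.112 and 0.0232, and PDK1, a kinase that inhibits pyruvate dehydrogenase, 0.0911. PGAM1 (phosphoglycerate mutase), ALDOC (another aldolase) and ENO2 (neuronal enolase) had means of 0.680, 0.366 and 0.00906.

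Among the genes of oxygen sensing EPAS1, which encodes HIF-2 alpha, was highest, at 1.90, 2.13, 1.78 and 1.70 counts per 10000. HIF1A stood at 0.658, 0.325, 0.427 and 0.340. Low resolution replicate 1 thus had 2.02 times the HIF1A level of replicate 2, and the other 3 plates lay closer together. EGLN1, a prolyl hydroxylase that acts on both subunits, kept to 0.693 to 0.790. EGLN3, a hydroxylase that is itself a HIF target, had a UMI in 1.37%, 2.58%, 1.03% and 3.07% of cells.

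Of the HIF targets, BNIP3L, a receptor for the removal of mitochondria, had the highest mean level, 1.70, followed by DDIT4, an inhibitor of mTOR signalling, with 1.15. ERO1A (an oxidase of disulfide formation), BNIP3 (the other mitochondrial receptor) and NDRG1 (a stress-induced protein) had means of 1.02, 1.01 and 0.909. ADM, which encodes the peptide adrenomedullin, stood at 1.36, 0.603, 0.628 and 0.722, highest in low resolution replicate 1. P4HA1 and P4HA2, subunits of collagen prolyl hydroxylase, had means of 0.406 and 0.207, MXI1, an antagonist of MYC, of 0.235, the histone demethylase KDM3A of 0.0964 and ANKRD37 of 0.0431.

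CA9, a cell-surface carbonic anhydrase widely used as a marker of hypoxic tumour regions, was near the floor of the measurement. It stood at 0.0263, 0.0228, 0.00612 and 0.0163 counts per 10000, in the range of the summed blood cell markers. A CA9 UMI was found in 4.81%, 6.27%, 2.41% and 3.41% of cells, with exact binomial 95% intervals that ran from 0.972% to 4.89% in the lowest plate and from 3.70% to 9.85% in the highest (counting error only). In cells thinned to 10000 UMIs the shares were 2.44%, 2.99%, 1.06% and 1.72%. CA9, EGLN3, ENO2, PFKFB4, ANKRD37, HK2 and PFKFB3 were the 7 genes that missed the limit of 20% in at least 1 plate. Correlations are given for the other 31.

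HIF binds the letters ACGTG or GCGTG. Both were searched on both strands in the 250 bases before the start of each gene in a RefSeq promoter table (GRCh38.p14), which gave a window for 36 of the 38 genes, all but BNIP3L and NDRG1. The table gives 1 start per gene, and RefSeq genes can have several. For 10 of the 36, GAPDH, GPI, PKM, PFKP, PFKM, PFKFB4, PGAM1, SLC16A3, KDM3A and P4HA2, the window lay inside the full span of the gene, downstream of its outermost start, and that of TPI1 overlapped it in part. ACGTG stood in 15 of 36 windows (41.7%) and in 18.7% of the 27305 windows of all genes, and GCGTG in 14 (38.9%) and in 31.9%. Either stood in 23 of 36 windows (63.9%) and in 43.1% of those of all genes, with 8 of 10 windows of HIF targets, 11 of 18 of glycolysis genes, 3 of 4 of oxygen sensing and 1 of 4 of lactate genes. Matches may overlap, and CACGTG was counted on both strands. The windows of the 36 genes held more G and C (median 69.2%) than those of all genes (58%). A match is a description of the letters, not a bound site. The windows of 6 genes on which the results turn follow, 5′ to 3′ on the strand of the gene and with the matches in capitals: GAPDH, LDHA and PGK1 ran together across cells, ENO1 and ALDOA followed the mesenchymal state in opposite directions, and ALDOC differed between the experiments.
GAPDH, chr12:6535014-6535263, plus strand: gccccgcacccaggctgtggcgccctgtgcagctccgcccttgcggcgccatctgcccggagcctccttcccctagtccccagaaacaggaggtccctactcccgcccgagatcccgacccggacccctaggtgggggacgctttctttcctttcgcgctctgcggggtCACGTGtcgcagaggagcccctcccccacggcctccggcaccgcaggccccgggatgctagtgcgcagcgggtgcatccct
LDHA, chr11:18394313-18394562, plus strand: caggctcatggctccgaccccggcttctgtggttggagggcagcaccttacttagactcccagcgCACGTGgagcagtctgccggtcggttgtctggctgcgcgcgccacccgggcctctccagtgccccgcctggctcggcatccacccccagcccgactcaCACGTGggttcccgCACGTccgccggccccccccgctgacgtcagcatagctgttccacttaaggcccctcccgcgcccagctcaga
PGK1, chrX:78103998-78104247, plus strand: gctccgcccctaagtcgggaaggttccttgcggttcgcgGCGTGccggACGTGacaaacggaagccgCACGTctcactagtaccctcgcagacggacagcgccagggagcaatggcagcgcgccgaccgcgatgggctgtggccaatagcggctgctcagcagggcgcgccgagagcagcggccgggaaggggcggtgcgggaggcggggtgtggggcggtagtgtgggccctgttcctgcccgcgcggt
ENO1, chr1:8878687-8878936, minus strand: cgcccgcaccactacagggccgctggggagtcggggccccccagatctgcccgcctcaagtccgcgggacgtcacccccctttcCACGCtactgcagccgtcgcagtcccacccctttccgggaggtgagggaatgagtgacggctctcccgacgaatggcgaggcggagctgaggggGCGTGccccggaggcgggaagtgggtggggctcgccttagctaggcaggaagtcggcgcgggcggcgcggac
ALDOA, chr16:30064029-30064278, plus strand: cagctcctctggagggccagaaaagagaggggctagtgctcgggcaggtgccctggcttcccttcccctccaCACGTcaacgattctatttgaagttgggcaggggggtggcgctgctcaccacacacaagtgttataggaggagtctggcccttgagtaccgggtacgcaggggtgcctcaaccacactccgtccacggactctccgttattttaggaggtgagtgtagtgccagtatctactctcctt
ALDOC, chr17:28576896-28577145, minus strand: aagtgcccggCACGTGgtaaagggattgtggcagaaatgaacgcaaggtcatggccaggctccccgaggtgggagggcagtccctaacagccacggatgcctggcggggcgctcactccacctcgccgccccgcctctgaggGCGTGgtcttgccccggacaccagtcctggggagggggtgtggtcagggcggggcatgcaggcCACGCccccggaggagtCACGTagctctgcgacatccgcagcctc

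LDHA and ALDOC held 5 matches each, PGK1 3, GAPDH and ENO1 2 each and ALDOA 1. Those of LDHA and GAPDH were all ACGTG and those of ENO1 all GCGTG. The windows of PKM, TPI1, LDHB and PFKP held none of these letters.

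To ask whether the genes rise and fall together from cell to cell, Spearman correlations (rho) were computed across the cells of each plate on log-normalized counts. They describe cells that share a plate, a library and a culture. Over the 465 pairs of 31 genes the mean rho was 0.064 ± 0.014 (SD, n = 4 plates), and over all pairs of the 8032 genes detected to the same limit it was 0.021. With each cell thinned to 10000 UMIs the means were 0.037 and 0.0026. Thinning evens out the depth of cells and not the levels of genes, and the 8032 genes were not matched to the 31 by level. How far level accounts for the difference was not tested. The pairs of glycolysis and lactate genes had a mean of 0.11 ± 0.030 and the 45 pairs of HIF targets 0.046 ± 0.0040. In thinned cells the means of these lists were 0.062 and 0.031.

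The pairs with the highest rho were of glycolysis and lactate genes. GAPDH and LDHA had the highest mean rho, 0.48, with 0.50, 0.63, 0.48 and 0.33 in the 4 plates. GAPDH and PGK1 followed with 0.46, then ENO1 and LDHB (0.45), TPI1 and ENO1 (0.45) and TPI1 and GAPDH (0.44). A rho of at least 0.3 in all 4 plates was found for 11 pairs (2.37%), of which 10 were of glycolysis and lactate genes. Among the pairs of all detected genes, not matched by level, the share was 0.151%. At 10000 UMIs per cell no pair of the 31 genes and 0.019% of all pairs reached 0.3 in all plates, and GAPDH and LDHA had a mean rho of 0.38. Set against the mean z-score of the other 30 genes, GAPDH was highest with 0.59, 0.66, 0.47 and 0.40. LDHA and PGK1 followed with means of 0.50 and 0.49.

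**Figure D2:**
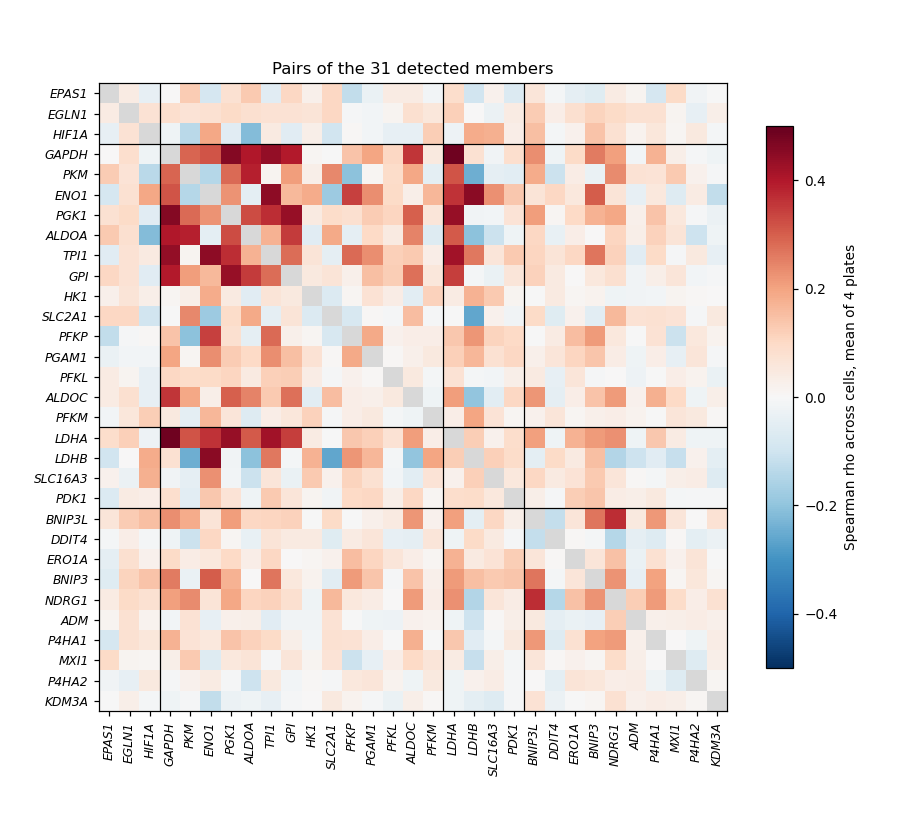
Mean Spearman rho over the 4 plates (colour) for each pair of the 31 detected genes, sorted as in the plot of levels, with lines between the roles. Red is strongest among glycolysis and lactate genes such as GAPDH, PGK1, TPI1, ENO1 and LDHA, with 0.48 for GAPDH and LDHA. The most negative pair is SLC2A1 and LDHB (-0.26).

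Some glycolysis genes ran against each other. LDHB had a negative rho in all 4 plates with SLC2A1 (mean -0.26) and PKM (-0.24), as had PFKP with PKM (-0.21) and HIF1A with ALDOA (-0.21). Their relation to a G2/M score of the cell cycle differed as well: the rho lay between -0.52 and -0.30 for PKM and between -0.30 and -0.13 for SLC2A1, and between 0.19 and 0.44 for LDHB and 0.22 and 0.43 for PFKP. With cell cycle scores regressed out the mean rho over all pairs was 0.065, a mean that does not show how these few pairs changed.

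Among the HIF targets a small group ran together. BNIP3L and NDRG1 had a mean rho of 0.37, with 0.31, 0.34, 0.43 and 0.38, and were the 1 pair of HIF targets at or above 0.3 in all plates. BNIP3 had a mean rho of 0.27 with BNIP3L and 0.23 with NDRG1, and P4HA1 of 0.22 and 0.21 with the same genes. Thinned to 10000 UMIs per cell, BNIP3L and NDRG1 had 0.23. P4HA2, ADM, KDM3A and DDIT4 had mean rho values of 0.027, 0.015, 0.0040 and -0.035 with the other genes. DDIT4, the lowest of the 31, had -0.13 with the other HIF targets.

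The mean z-score of the glycolysis and lactate genes and that of the HIF targets had a rho of 0.31, 0.37, 0.16 and 0.19 in the 4 plates, a mean of 0.26 ± 0.10 (SD, n = 4). Thinned cells gave 0.19, 0.29, 0.12 and 0.10. Both low resolution plates were above both high resolution plates, a difference that was not tested. Of the HIF targets, BNIP3 had the highest rho with the glycolysis and lactate score (0.29), ahead of BNIP3L (0.23) and NDRG1 (0.22). HIF1A had a mean rho of 0.0061 with the glycolysis and lactate score and 0.13 with the HIF target score.

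The genes most like the 2 scores were taken from 8001 other detected genes by mean rho over the plates. LOXL2, a lysyl oxidase-like enzyme, was first for both, with 0.27 for glycolysis and lactate and 0.32 for the HIF targets. The glycolysis and lactate score was next most like YBX1 (0.24), PGM1 (0.23), a phosphoglucomutase, CANX (0.23) and ACTB (0.21). The HIF target score was next most like PLOD2 (0.32), a lysyl hydroxylase of collagen, CTSB (0.30), CD59 (0.28) and PON2 (0.27). Lowest for glycolysis and lactate were MT-CYB, MT-ND4, MT-RNR2, MT-CO3 and MT-ATP6, all of the mitochondrial genome, from -0.28 to -0.24. Lowest for the HIF targets were CYC1, ATP5G1, CYCS, COX8A and SLC25A5, nuclear genes of respiration and ATP exchange, from -0.30 to -0.25. The glycolysis and lactate score had a mean rho of -0.31 with the mitochondrial share of a cell. Each mitochondrial count lowers the normalized value of all other genes of the cell.

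The genes were next set against the epithelial-to-mesenchymal transition (EMT), the loss of epithelial and gain of mesenchymal traits. Each cell was given an EMT score from lists of epithelial (E) and mesenchymal (M) genes, none of them among the 38, as M minus E. The score had a mean rho of -0.74 with CDH1 and -0.73 with EPCAM, adhesion proteins of epithelia, and of 0.60 with VIM (vimentin) and 0.75 with FN1 (fibronectin). All 4 are in the lists that make the score, so these values are no check of it. A gene was said to follow the score when its rho was at least 0.3 in size with the same sign in all 4 plates. Of 7959 detected genes outside the lists, 2.31% followed it upwards and 2.41% downwards. Of the 31 genes, 1 followed it upwards and 1 downwards, which is near the shares of all genes.

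ENO1 followed upwards, with a rho of 0.59, 0.50, 0.35 and 0.43. To give levels, the cells of each plate were cut by score into 3 parts of equal size. Its level was 16.6, 18, 21.8 and 19.6 counts per 10000 in the low-score part and 29.4, 27.6, 28.2 and 26.4 in the high-score part, without overlap, a ratio of 1.29 to 1.77. Its mean rho was -0.37 with CDH1, -0.30 with EPCAM, 0.31 with VIM and 0.26 with FN1. Cells high in ENO1 also had a lower mitochondrial share (rho -0.56 to -0.41) and higher G2/M scores (0.24 to 0.38), and the EMT score itself had a rho of -0.48 to -0.30 with the mitochondrial share. ENO1 still followed the score with mitochondrial genes left out (mean rho 0.43), with the cell cycle regressed out (0.45) and at 10000 UMIs per cell (0.41).

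ALDOA followed downwards, with a rho of -0.35, -0.36, -0.38 and -0.38. Its level was 7.16, 7.56, 6.06 and 6.41 in the low-score part and 5.08, 5.37, 4.41 and 4.71 in the high-score part, a ratio of 0.710 to 0.735. Its mean rho was 0.32 with CDH1, 0.32 with EPCAM, -0.25 with VIM and -0.32 with FN1. Its rho with the mitochondrial share lay between -0.051 and 0.14. At 10000 UMIs per cell (mean rho -0.28) and without a limit on the mitochondrial share (-0.31) it no longer reached 0.3 in size in every plate.

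**Figure D3:**
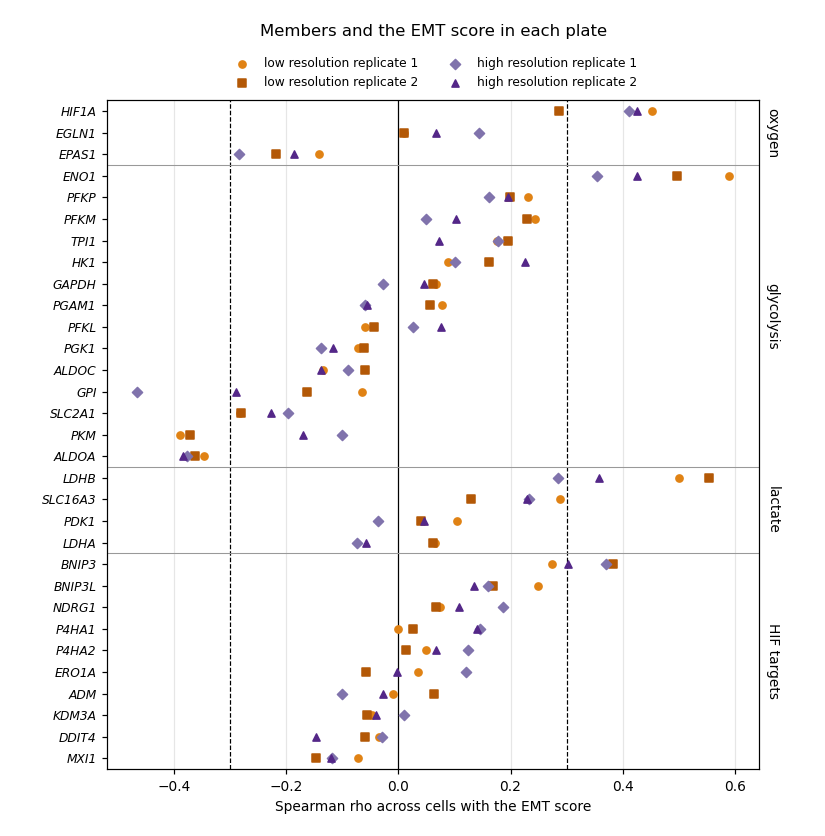
Spearman rho with the EMT score (x axis) in the 4 plates (symbols) for the 31 detected genes, grouped by role and sorted by mean, with dashed lines at -0.3 and 0.3. ENO1 lies beyond the right line and ALDOA beyond the left line in all plates, while HIF1A, LDHB and BNIP3 have 1 plate each inside the right line (0.29, 0.28 and 0.27).

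HIF1A, LDHB and BNIP3 missed the limit in 1 plate each. HIF1A had a rho of 0.45, 0.29, 0.41 and 0.43 with the score. Its level was 0.298, 0.208, 0.190 and 0.125 in the low-score part and 1.14, 0.575, 0.611 and 0.513 in the high-score part, a ratio of 2.76 to 4.10. Its mean rho was -0.35 with EPCAM, -0.32 with CDH1 and 0.37 with FN1, and that with VIM is not given here. Its rho with the G2/M score was -0.011 to 0.13 and with the mitochondrial share -0.27 to -0.025. In thinned cells its mean rho with the EMT score was 0.28. EPAS1, the other alpha subunit, had the opposite sign in every plate (-0.14, -0.22, -0.28 and -0.19), and its level in the high-score part was 0.704 to 0.852 times that in the low-score part.

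LDHB had a rho of 0.50, 0.55, 0.28 and 0.36 with the EMT score, and its level was 2.44, 2.63, 3.56 and 3.73 in the low-score part and 4.57, 4.90, 4.53 and 4.91 in the high-score part. Like ENO1 it had a negative mean rho with the mitochondrial share (-0.40) and a positive one with the G2/M score (0.34), and its rho with the number of transcripts of a cell was 0.16 to 0.45. In thinned cells the rho of LDHB with the EMT score was 0.43, 0.38, 0.22 and 0.28. BNIP3 had a rho of 0.27, 0.38, 0.37 and 0.30, and its level was 0.669, 0.733, 0.722 and 0.778 in the low-score part and 1.28, 1.36, 1.32 and 1.28 in the high-score part. In thinned cells the mean rho of BNIP3 was 0.19. BNIP3L and NDRG1 had mean values of 0.18 and 0.11.

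The HIF target score had a mean rho of 0.15 ± 0.062 with the EMT score, and the glycolysis and lactate score one of 0.071 ± 0.063 (SD, n = 4 plates). With mitochondrial genes left out these were 0.086 and -0.061, so that the sign of the glycolysis and lactate value turned. In thinned cells they were 0.098 and 0.019.

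PKM, SLC2A1 and GPI stood on the epithelial side beside ALDOA, with a mean rho of -0.26, -0.25 and -0.25 and a negative sign in all plates. PKM had -0.39, -0.37, -0.10 and -0.17, with levels of 47.1, 52, 44.4 and 45.5 in the low-score part and 35.5, 39.8, 41.8 and 41.3 in the high-score part. GPI had -0.064, -0.16, -0.47 and -0.29. The lower values in size lay in the high resolution plates for PKM and in the low resolution plates for GPI. GAPDH and LDHA, at the centre of the co-expressed block, had a mean rho of 0.037 and -0.0010. Of the 31 genes, 13 had a positive rho in all plates and 9 a negative one, and 4674 of the 7959 genes had the same sign in all plates. The median of the mean rho was 0.037 for the 31 genes and 0.017 for all genes.

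**Figure D4:**
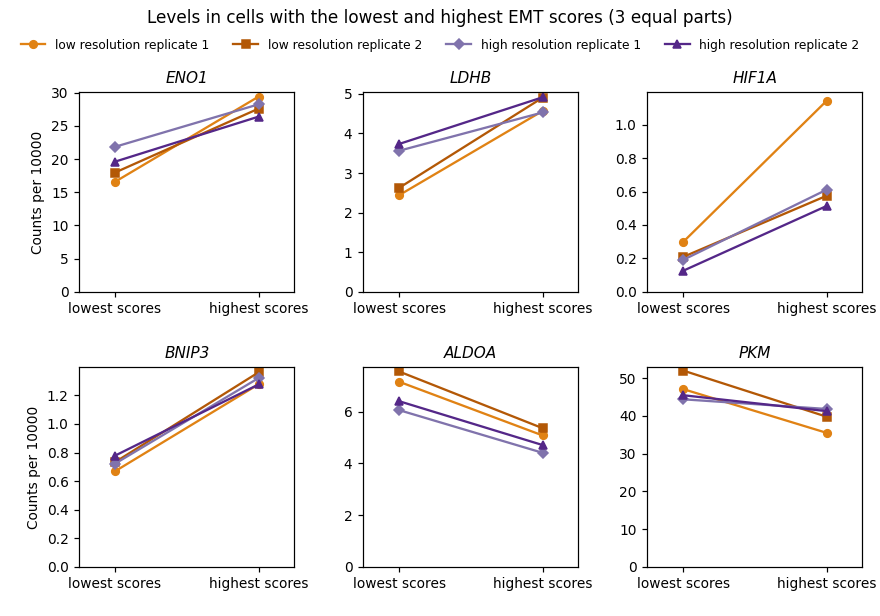
Level (y axis, counts per 10000, from 0) of 6 genes in the parts of cells with the lowest and the highest EMT score, with a line for each plate (90 to 97 cells per part). ENO1, LDHB, HIF1A and BNIP3 are higher in the high-score part in every plate, HIF1A 2.76 to 4.10 times, and ALDOA and PKM are lower.

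High and low resolution plates were compared on the summed counts of their cells, 2 plates against 2, with edgeR (quasi-likelihood test, Benjamini-Hochberg adjustment over 12437 genes), and log2 fold changes are high minus low. At an adjusted p below 0.05, 6.26% of all genes tested were higher and 6.18% lower in the high resolution plates. Of the 38 genes all but EGLN3 could be tested, and 1 was higher and 2 were lower, which is 3 of 37 and no larger a share than over all genes. The median log2 fold change was 0.038 over the 37 genes and -0.019 over all genes. The median over the 37 genes changed sign with the plate left out. It was -0.055 and 0.11 without low resolution replicates 1 and 2, -0.00261 and 0.0163 without high resolution replicates 1 and 2 (36 genes tested) and -0.000145 in thinned cells (34 genes tested).

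ALDOC was lower in the high resolution plates, with levels of 0.435 and 0.467 against 0.284 and 0.279. Its log2 fold change was -0.65 ± 0.13 (SE; edgeR adjusted p = 0.00873), and it passed under all 12 alternatives, with log2 fold changes from -0.73 to -0.55. KDM3A was also lower, with levels of 0.115 and 0.131 against 0.0717 and 0.0680 and a log2 fold change of -0.78 ± 0.20 (SE; edgeR adjusted p = 0.0254). PFKP was higher, with levels of 0.973 and 0.973 against 1.24 and 1.39 and a log2 fold change of 0.47 ± 0.11 (SE; edgeR adjusted p = 0.0194). At 10000 UMIs per cell KDM3A (-0.57, edgeR adjusted p = 0.227) and PFKP (0.40, edgeR adjusted p = 0.0639) did not pass, and with DESeq2 KDM3A did not (-0.78, DESeq2 adjusted p = 0.0667). In the 3 plates with the same run identifier, without low resolution replicate 1, the log2 fold changes of ALDOC, KDM3A and PFKP were -0.73, -0.91 and 0.43. PFKP did not pass there. Without low resolution replicate 2 KDM3A did not pass (-0.64, edgeR adjusted p = 0.0964), and without high resolution replicate 2 neither did KDM3A (-0.73, edgeR adjusted p = 0.103) or PFKP (0.40, edgeR adjusted p = 0.134).

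**Figure D5:**
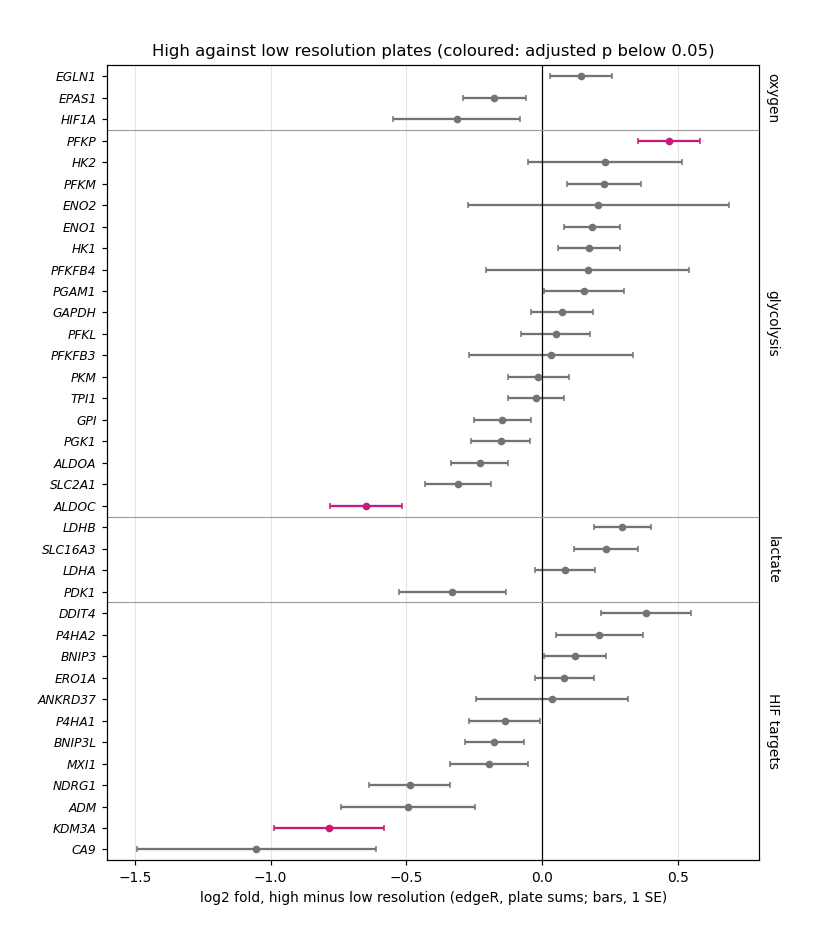
log2 fold change between the experiments (x axis, high minus low resolution, edgeR on plate sums) with bars of 1 SE for the 37 genes tested, sorted within each role. The coloured genes, ALDOC (-0.65), KDM3A (-0.78) and PFKP (0.47), have an adjusted p below 0.05, and CA9 (-1.05) has a wide bar.

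Other genes did not pass the test in the main setting. Plates without overlap between the experiments also occurred for genes with high p-values, such as ERO1A and P4HA1 (edgeR adjusted p = 0.675 and 0.527). The share of genes without overlap among all genes is not given here. NDRG1 stood at 0.966 and 1.18 against 0.654 and 0.841, with a log2 fold change of -0.49 ± 0.15 (SE; edgeR adjusted p = 0.0507), and passed without low resolution replicate 1 (-0.65, edgeR adjusted p = 0.0283) or high resolution replicate 2 (-0.67, edgeR adjusted p = 0.00504), with no filter on low counts (-0.48, edgeR adjusted p = 0.00607) and with mitochondrial genes left out (-0.49, edgeR adjusted p = 0.0479). Its value was smaller without low resolution replicate 2 (-0.29, edgeR adjusted p = 0.269) or high resolution replicate 1 (-0.32, edgeR adjusted p = 0.282). LDHB stood at 3.57 and 3.59 against 4.12 and 4.46 (0.29 ± 0.10 SE; edgeR adjusted p = 0.0859), and SLC2A1 at 1.48 and 1.57 against 1.09 and 1.31 (-0.31 ± 0.12 SE; edgeR adjusted p = 0.115). Without high resolution replicate 1 SLC2A1 had a smaller value (-0.19, edgeR adjusted p = 0.587). CA9 had -1.05 ± 0.44 (SE; edgeR adjusted p = 0.138), on a mean of 0.0241 to 0.0894 counts per cell, and its value hung on the high resolution plates, with -0.56 (edgeR adjusted p = 0.645) without replicate 1 and -1.93 (edgeR adjusted p = 0.0771) without replicate 2. GAPDH (0.07 ± 0.11), PKM (-0.01 ± 0.11) and LDHA (0.08 ± 0.11) had edgeR adjusted p-values of 0.725, 0.954 and 0.674. Without low resolution replicate 1 their log2 fold changes were -0.04, -0.12 and -0.02, and without replicate 2 they were 0.21, 0.11 and 0.20, so that the direction turned with the plate left out.

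For HIF1A, ADM and DDIT4 the value changed with the low resolution plate left out. HIF1A had a log2 fold change of -0.31 ± 0.23 (SE; edgeR adjusted p = 0.410), of 0.24 (edgeR adjusted p = 0.452) without low resolution replicate 1 and of -0.70 (edgeR adjusted p = 0.0212) without replicate 2. ADM had -0.49 ± 0.25 (SE; edgeR adjusted p = 0.217), 0.16 (edgeR adjusted p = 0.528) without replicate 1 and -0.93 (edgeR adjusted p = 0.00240) without replicate 2. DDIT4, at 1.25, 0.773, 1.20 and 1.36 in the 4 plates and lowest in low resolution replicate 2, had 0.38 ± 0.17 (SE; edgeR adjusted p = 0.151), 0.73 (edgeR adjusted p = 0.0114) without replicate 1 and 0.12 (edgeR adjusted p = 0.628) without replicate 2. ADM also passed without high resolution replicate 2 (-0.58, edgeR adjusted p = 0.0210), and HIF1A had a smaller value without it (-0.14, edgeR adjusted p = 0.752). Of the 4 EMT markers 3 differed between the experiments at the same time, VIM by 0.94 ± 0.13, FN1 by 0.77 ± 0.11 and CDH1 by -0.68 ± 0.12 (log2, SE; edgeR adjusted p = 0.00117, 0.00127 and 0.00321), while EPCAM had -0.11 ± 0.11 (edgeR adjusted p = 0.566), and their part in these differences was not tested.

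Other genes of the same pathways were listed separately. Of 29 further genes of the HIF response 23 were tested with edgeR, and 5 were higher and 3 lower in the high resolution plates, beside 6.26% and 6.18% of all genes tested. ANGPTL4, an inhibitor of lipoprotein lipase, had a log2 fold change of 1.66 ± 0.26 and IGFBP3, which binds insulin-like growth factors, of -1.31 ± 0.17 (SE; edgeR adjusted p = 0.00197 and 0.000781). ANGPTL4 had 1.08 (edgeR adjusted p = 4.21e-06) without high resolution replicate 2. Across cells 6 of 21 detected genes of that list followed the EMT score upwards and 0 downwards, beside 2.31% and 2.41% of all genes. Among the 6 were STC2 (mean rho 0.62), ANGPTL4 (0.45), CA12 (0.40), a carbonic anhydrase, CITED2 (0.39) and GBE1 (0.37), the glycogen branching enzyme. With the HIF target score CA12 and GBE1 had a mean rho of 0.26 and 0.26, STC2 and CITED2 of 0.17 and 0.16, all positive in every plate, and ANGPTL4 of 0.0092. TMEM45A, IGFBP3 and VEGFA of the same list had 0.25, 0.19 and 0.19 with that score, also positive in every plate. Their mean rho with the EMT score was -0.075, -0.19 and -0.17, negative in every plate. Over the 21 genes the median of the mean rho with the EMT score was 0.049. CA12 was among the 3 genes lower in the high resolution plates (log2 -0.61 ± 0.15 SE; edgeR adjusted p = 0.0193). Of 28 further genes of glucose metabolism 21 were tested, and 0 were higher and 3 lower: PDK4, a pyruvate dehydrogenase kinase (-1.85 ± 0.37), FBP1, an enzyme of glucose synthesis (-1.03 ± 0.26), and PFKFB2 (-0.74 ± 0.21), with edgeR adjusted p-values of 0.00788, 0.0217 and 0.0365. PDK4 stood at 61.4 and 184.6 CPM (TMM-scaled) against 25.7 and 42.2, with low resolution replicate 2 far above replicate 1, and had -0.84 (edgeR adjusted p = 0.0369) without that plate and -1.85 (DESeq2 adjusted p = 0.123) with DESeq2. FBP1 did not pass without low resolution replicate 1 (-0.80, edgeR adjusted p = 0.120) or high resolution replicate 2 (-0.77, edgeR adjusted p = 0.133). PFKFB2 did not pass with any of low resolution replicate 1 and high resolution replicates 1 and 2 left out (edgeR adjusted p = 0.154, 0.153 and 0.0628) or with DESeq2 (DESeq2 adjusted p = 0.101), and in thinned cells neither FBP1 nor PFKFB2 did (edgeR adjusted p = 0.0921 and 0.202). Of 18 detected genes of that list 0 followed the EMT score upwards and 0 downwards.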

How the data were processed

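Single MCF10A cells on 4 plates (2 low, 2 high resolution) were measured by SORT-seq, with 1 deposited table per plate. The values are expected counts of transcripts per gene and well, which the authors obtained from the number of distinct UMIs by a correction for repeated use of the same UMI, and depth was not scaled. Every value was checked to be this correction of a whole number for 4096 UMI sequences. The submitters' processing notes name STAR 2.7.3a, Seurat 4 and hg38. The gene annotation is not given in the sources used here. Spike-in rows were left out of library sizes.

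Following the study's methods, a well was kept as a cell if it held 2000 to 9000 features and less than 40% of its counts were mitochondrial. This left fewer cells than the study analysed, and which wells its authors kept could not be matched. Each cell was scaled to 10000 and log-transformed, and the EMT score was computed with an own implementation of Gene Set Variation Analysis (Gaussian kernel, both plates of an experiment together). Plate sums, rounded to whole numbers, were tested with edgeR 4.0.16 in R 4.3.3 (quasi-likelihood, TMM, filterByExpr, Benjamini-Hochberg over all genes, threshold 0.05). The SE of an edgeR log2 fold change was worked back from the test, as the size of the change divided by the square root of the F statistic. The p-values rest on 2 plates per experiment of a single cell line. The scripts were tested on simulated data.

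The members, lists, rules and tests were chosen with earlier results of these data known. Full values are given for genes that pass the edgeR threshold or follow the EMT score, for the 5 highest levels, and for the highest and lowest rho with the other genes. Other genes named in the text, such as HIF1A, LDHB and BNIP3, were chosen after their values were seen. Outside the 38, the 5 genes at each end of likeness, at most 3 per further list and comparison by size, and 4 EMT markers are named by rule. In the further HIF list CA12, CITED2, GBE1, TMEM45A and VEGFA are named outside this rule. A further gene that the rule names is not reported here, and counts over its list include it. Alternatives were DESeq2 1.42.0 and its size factors, no filter on low counts, whole UMIs, thinning to 10000 UMIs, other cell and detection limits, mitochondrial genes left out, cell cycle regressed out, Pearson correlation, another EMT score, a replicate block and leaving out each plate.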

Additional observations from a re-analysis of the deposited data

Results flagged for a closer look

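For 3 of the 31 detected genes (9.68%) the rho with the EMT score had one direction in both low resolution plates and the opposite direction in both high resolution plates, as it had for 591 of 7959 detected genes outside the EMT lists (7.43%). The difference between the experiments was not tested, and all values were near 0. PFKL, the liver-type phosphofructokinase subunit, had a mean rho of -0.0515 in the low and 0.0508 in the high resolution plates, a difference of 0.102 (high minus low). PGAM1, phosphoglycerate mutase, had 0.0677 and -0.0574, a difference of -0.125. LDHA, the lactate dehydrogenase subunit at the centre of the co-expressed genes, had 0.0636 and -0.0657, a difference of -0.129.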

How the results depend on the processing

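None of the values recomputed under the alternatives turned a call to the other direction. The mean rho over pairs of the genes was 0.037 in cells thinned to 10000 UMIs and 0.094 without a limit on the mitochondrial share. The number of genes that followed the EMT score upwards was 2 without a mitochondrial limit, 3 with the cell cycle regressed out, 2 with a mean z-score difference as the EMT score, 4 at a rho limit of 0.2 and 0 at 0.4, and 1 to 2 with each plate left out, where only 3 plates had to agree. The number that followed downwards was 0 in thinned cells, 0 without a mitochondrial limit and 0 at a limit of 0.4. The shares of all genes under these alternatives are not given here. The shares of 2.31% and 2.41% hold for the main setting only, so these counts cannot be set against them. The rho of the glycolysis and lactate score with the EMT score was 0.16 without a mitochondrial limit and -0.061 with mitochondrial genes left out, and that of the HIF target score 0.086 with mitochondrial genes left out. The summed level of the 38 genes was 203.6 counts per 10000 in thinned cells and 277.2 with mitochondrial genes left out, by construction of the scale in the latter. Between the experiments the count of higher genes was 2 with no filter on low counts, 0 in thinned cells and 0 to 1 with each plate left out, and that of lower genes 4 with no filter, 3 with mitochondrial genes left out (NDRG1 added), 1 with DESeq2 (ALDOC), 1 in thinned cells and 2 to 3 with each plate left out. The causes were not tested.

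Over all genes edgeR called 778 higher and 769 lower, against 473 and 415 in thinned cells and 434 to 552 and 511 to 620 with a plate left out, where a lone plate is assumed to vary like the other group. With the replicate number as a block (replicate block) 2 of the 37 genes were higher (PFKP and DDIT4) and 3 lower (ALDOC, KDM3A and NDRG1). In that setting 1008 of all 12437 genes tested were higher and 1015 lower. The counts over all genes were 1089 and 1057 of 19290 with no filter on low counts. They were 750 and 776 of 12402 with mitochondrial genes left out, and 557 and 513 of 12437 with DESeq2. Deviations of plates with the same number had a correlation of -0.023 across genes. This value alone cannot exclude a pairing, and the main test treated the plates as unpaired.

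With 2 plates per experiment, and a mixture of regions in each, small differences were not detectable. For genes with under 1 count per cell, such as KDM3A, PDK1 and CA9, depth limits what correlations across cells can show. Levels of GAPDH, ENO1, LDHA, PKM and PGK1 depend on how reads shared with pseudogenes were counted.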
